A study of Mus musculus with 2 samples.

Results

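The genes described here are the CD28 family of T cell co-receptors and the inhibitory co-receptors beside it. They are the 8 genes Cd28, Icos, Ctla4, Pdcd1, Lag3, Btla, Cd5 and Cd6, chosen by symbol through the platform annotation of the array. Of the 11866 probes of the deposited value table, which cover 8116 named genes, 13 probes belonged to 7 of these genes. Pdcd1, which encodes PD-1, had no probe there under its symbol and was not analysed here. The co-stimulatory genes Cd28 and Icos held 5 of the probes, and the inhibitory genes Ctla4, Lag3, Btla, Cd5 and Cd6 held 8. The study hybridised total RNA from cells of mouse lymph nodes to Illumina bead arrays, 1 array per population. One population was labelled conventional CD4 T cells and the other type 1 invariant NKT cells, both from female mice kept free of specific pathogens. The cells were sorted with magnets or by fluorescence, and strain, age, treatment and the number of animals pooled are not stated in the labels. Their arrays are called the CD4-labelled and the NKT-labelled library below. With 1 array each, values carry no replicate error, and differences are given by size without any p-value.

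A T cell that binds its antigen needs a further signal through co-stimulatory receptors. CD28 binds CD80 and CD86 on antigen-presenting cells and recruits PI3-kinase, and ICOS, induced after activation, binds the ICOS ligand. CTLA-4 binds the same ligands as CD28 with higher affinity and restrains the response, PD-1 and BTLA carry inhibitory tyrosine motifs, and LAG-3, a relative of CD4, binds MHC class II. CD5 and CD6 are scavenger-receptor family proteins of T cells that tune signals of the T cell receptor. Invariant NKT cells recognise lipids on CD1d and leave the thymus in a memory-like state.

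The 2 libraries were first checked against their labels. All 8 measured invariant NKT markers, Klrb1c, Il2rb, Tbx21, Ifng, Il4, Xcl1, Cxcr3 and Cd44, were 2-fold or more higher in the NKT-labelled library. Of all detected genes 9.35% were, and the markers were listed with earlier results of these data known. The T cell gene Cd3e differed by only 0.11 on the log2 scale. The invariant NKT markers were read at the probe of highest mean signal. Another Cd44 probe differed by -0.01, and Zbtb16 had no probe. The NK cell genes Klre1 and Klrk1 and all measured red cell and hepatocyte genes were higher there too, while Eomes was lower, as given below. Cd8b1, a chain of the CD8 co-receptor, had a log2 signal of 15.60 in the CD4-labelled library and 9.33 in the other, and Cd4 itself differed by -0.61 from 9.61. The other listed CD4 T cell markers were near the detection level of 7.83. Zbtb7b measured 7.79 and 7.89 and Cd40lg 7.66 and 7.88, both under that level in the CD4-labelled library. The Y-linked gene Eif2s3y, detected in both, measured 11.55 in the CD4-labelled library and was lower in the other, by a difference of -2.55, although both samples were labelled as female. Cd8b1 and Eif2s3y go against the labels, so every direction below depends on them. The deposited tables also conflict. The value table of the CD4-labelled library kept the probe order of its non-normalized column (Spearman's rank correlation 1 across probes), whereas that of the NKT-labelled library reached only 0.822 with its own. With the non-normalized column of the CD4-labelled library it reached 0.823, so it matched its own column no better than the other. All values below come from the value table, and those of the non-normalized table are set beside them.

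Cd28, Ctla4 and Icos held all the probes that differed 2-fold or more, with Lag3 counted at its bound. Of the 13 probes, 3 were 2-fold or more higher in the NKT-labelled library, where 9.80% of all 10531 detected probes of the table were, and 2 were 2-fold or more lower, where 9.70% of all were. The 3 higher probes were 2 of Cd28 and 1 of Icos. The lower ones were the probe of Ctla4 and the other probe of Icos. No inhibitory probe was 2-fold or more higher. Each difference is the log2 value of the NKT-labelled library minus that of the CD4-labelled library. The only measure of error was the spread between probes of 1 gene. Over 1903 genes with several detected probes, the log2 difference had a within-gene SD of 0.60, which does not cover animals, sorts or arrays.

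**Figure D1:**
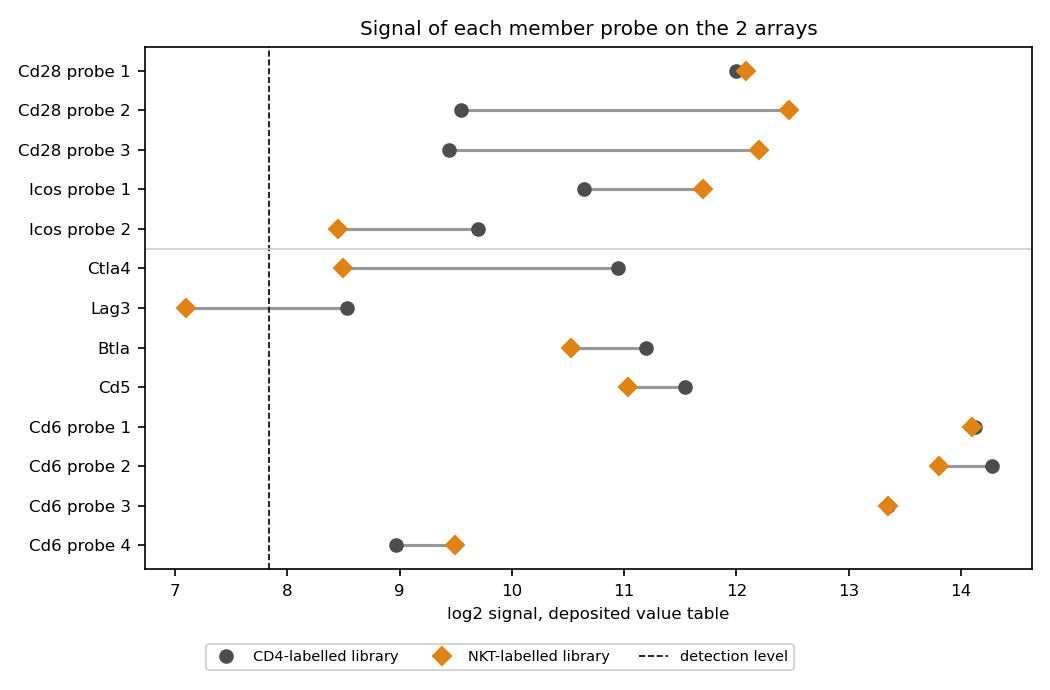
Log2 signal of each of the 13 probes in the CD4-labelled library (circles) and the NKT-labelled library (diamonds), with co-stimulatory genes above the grey line, inhibitory genes below it and the detection level of 7.83 dashed. Probes of 1 gene are numbered by mean signal, and Lag3 in the NKT-labelled library, at 7.09, is the one value under the detection level.

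Cd28 was higher in the NKT-labelled library at 2 of its 3 probes and near equal at the third. Probe ILMN_2589865 had a log2 signal of 9.55 in the CD4-labelled library and 12.47 in the NKT-labelled library, a difference of 2.92 or 7.57-fold. Probe ILMN_2589871 gave nearly the same contrast, with 9.44 against 12.20, a difference of 2.76. Only 0.851% and 0.986% of all probes of the table had differences as high or higher than these. Probe ILMN_2591361, which had the highest mean signal of the 3, measured 12.00 and 12.09, a difference of 0.09, well inside the SD between probes. The 3 probes thus spanned 2.83 on the log2 scale, a range that 9 of the 480 genes with 3 detected probes reached (1.88%), Cd28 included. All 3 are annotated to the same transcript record, and the RefSeq table lists 1 curated Cd28 transcript. Where each probe lies on it was not analysed here.

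Icos, the inducible co-stimulator, had 2 probes that went opposite ways. Probe ILMN_2906430 measured 10.64 in the CD4-labelled library and 11.70 in the NKT-labelled library, a difference of 1.06. Probe ILMN_1221516 measured 9.70 and 8.45, a difference of -1.25. Both differences exceeded the SD between probes, and their mean was -0.095, so no direction can be given for the gene. Of the 1903 genes with 2 or more detected probes, 21 (1.10%) had probes 2-fold or more apart in opposite directions, and Icos was one of them. The RefSeq table lists 1 curated and 3 predicted coding transcripts of Icos.

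Ctla4 was the member furthest below its level in the CD4-labelled library. Its 1 probe, ILMN_2631752, had a log2 signal of 10.94 in the CD4-labelled library and 8.50 in the NKT-labelled library, a difference of -2.44 or 5.43-fold. Both values lay above the detection level of 7.83, which is the lowest value-table signal with a detection p under 0.01 in the first non-normalized column. Of all probes of the table, 0.632% had a difference as low or lower. Cd28, Ctla4 and Icos are consecutive protein-coding genes on chromosome 1, with Ctla4 in the middle, and of its neighbours Cd28 was higher at 2 of 3 probes and Icos went both ways. RefSeq lists 2 curated transcripts of Ctla4, and with 1 probe the arrays cannot tell them apart. In bulk RNA, fewer cells that express a gene and less of its RNA per cell cannot be told apart.

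The promoter window of Ctla4 from RefSeq (GRCm38.p6, chr1:60908775-60909074, plus strand, from 250 bases before the annotated start to 50 after it) is shown because Ctla4 had the lowest difference of the members. Capitals mark matches to GGAAA, the core letters bound by NFAT factors, here on the opposite strand as TTTCC, and to TATAAA, the letters of a TATA box.
Ctla4: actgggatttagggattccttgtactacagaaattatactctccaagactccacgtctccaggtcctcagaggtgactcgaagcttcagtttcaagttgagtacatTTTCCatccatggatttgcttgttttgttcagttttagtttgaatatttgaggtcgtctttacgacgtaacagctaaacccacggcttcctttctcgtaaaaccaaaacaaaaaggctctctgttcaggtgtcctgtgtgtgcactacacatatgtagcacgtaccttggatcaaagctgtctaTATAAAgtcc
Counting the annotated start as base 1 and the base before it as -1, the NFAT core match began at base -144 and the TATAAA match at base 41. The TATAAA match thus lay downstream of the annotated start, and whether it acts as a TATA box was not tested. Neither TGANTCA (AP-1), TTCNNNGAA (STAT) nor GGGCGG (GC box) matched on either strand. Among all 32851 promoter windows of the table, 61.3% held GGAAA and 13.6% held TATAAA, so the first is common. The table also held windows of Pdcd1, Btla and Cd5, with 2, 0 and 1 matches to GGAAA and none to TATAAA. The arrays hold no measure of promoter use, and a match of letters is only a description.

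Lag3, Btla and Cd5 were all lower in the NKT-labelled library, each by less than 2-fold or with a bound below it. Lag3 measured 8.53 in the CD4-labelled library and 7.09 in the NKT-labelled library. The second value is below the detection level, so the gene was at least 1.62-fold lower, from a measured difference of -1.44. On the annotation Lag3 lies next to Cd4, whose own difference was -0.61. Btla, the receptor of the TNF receptor family member HVEM, measured 11.19 and 10.52, a difference of -0.67, slightly above the SD between probes. Cd5 measured 11.54 and 11.04, a difference of -0.51, inside that SD. Btla and Cd5 had 1 probe each, above the detection level in both libraries.

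Cd6, which binds ALCAM on other cells, was close to equal in both libraries. Its 4 probes differed by 0.52, 0.01, -0.03 and -0.47, each inside the SD between probes. Probe ILMN_2769330, with the highest mean signal of the 4, measured 14.13 and 14.10, and ILMN_2769325 measured 13.35 in both. ILMN_3117602 measured 14.27 and 13.80, and the dimmest probe, ILMN_3042812, measured 8.97 and 9.49. Their range of 0.99 was matched or undercut by 38 of the 94 genes with 4 detected probes (40.4%). Cd5 and Cd6 are neighbouring protein-coding genes on chromosome 19, and neither differed 2-fold.

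Set side by side, the co-stimulatory probes lay higher than the inhibitory ones. Of the 5 co-stimulatory probes 4 had differences above 0, with a median of 1.06, and of the 8 inhibitory probes 6 had differences below 0, with a median of -0.49. Over all detected probes the median was -0.04, and 51.9% lay below 0. With the probe of highest mean signal standing for each gene, the midpoint of Cd28 and Icos was 0.57, and the median of Ctla4, Lag3, Btla, Cd5 and Cd6 was -0.67. The value of the co-stimulatory pair depends on the probe, since the second brightest probes of Cd28 and Icos gave 0.84 from differences of 2.92 and -1.25. Only 2 genes stand on the co-stimulatory side, probes of 1 gene are not replicates, and the contrast is a description of these 2 arrays.

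**Figure D2:**
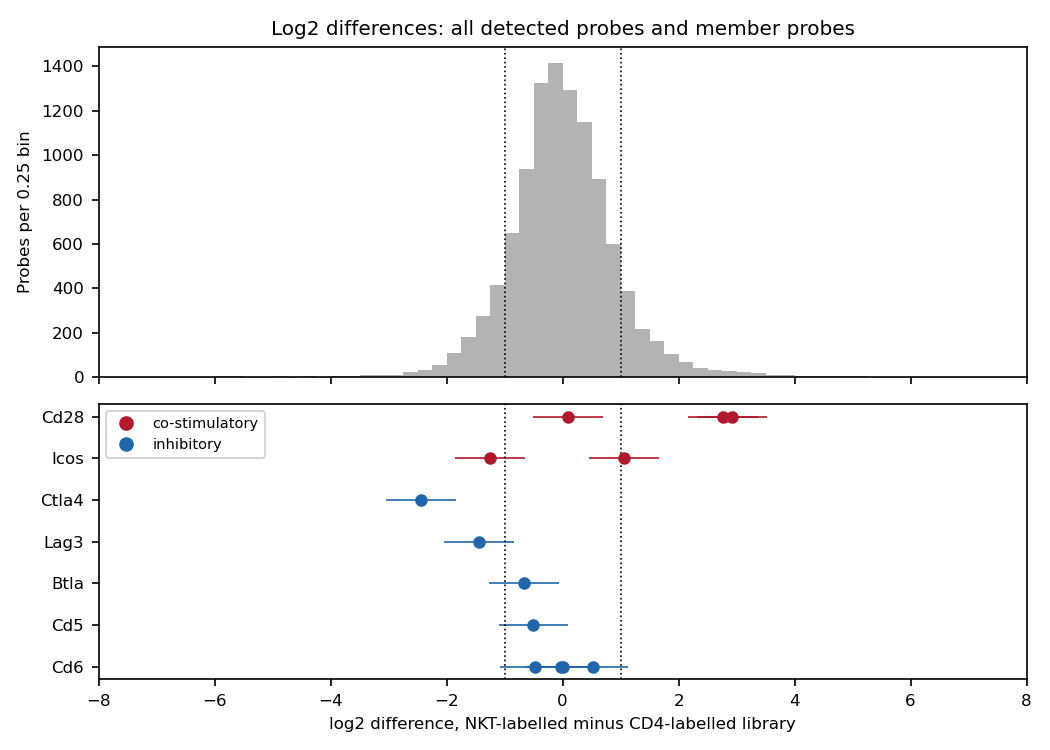
Log2 differences (NKT-labelled library minus CD4-labelled library) of all 10531 detected probes as a histogram (top) and of the 13 member probes by gene (bottom), where bars are 1 within-gene probe SD of 0.60 and dotted lines mark 2-fold. Cd28 has probes at 0.09, 2.76 and 2.92, Icos lies on both sides of 0, and the inhibitory genes run from -2.44 for Ctla4 to 0.52 for the dimmest Cd6 probe.

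No difference of this size appeared in the non-normalized table. There, each of the 13 probes had a detection p of 0 in both columns, and the log2 ratio of the second column over the first ran from -0.11 for Lag3 to 0.15 for Cd28 probe ILMN_2589871. Ctla4 had intensities of 2007 and 2163 there, a log2 ratio of 0.11, against -2.44 in the value table. Cd28 probe ILMN_2589865 had 789.9 and 801.8, a ratio of 0.02, against 2.92. Lag3 had 392.7 and 363.3. Once that table was quantile-normalised, 0.00% of probes were 2-fold higher and 0.00% lower. Of its 25697 probes, 0 were 2-fold apart before normalisation, and the 2 columns had a Pearson's r of 0.997 across probes on the log2 scale. Which table holds the signals of the sample labelled invariant NKT was not tested, and all the directions above rest on the value table alone.

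**Figure D3:**
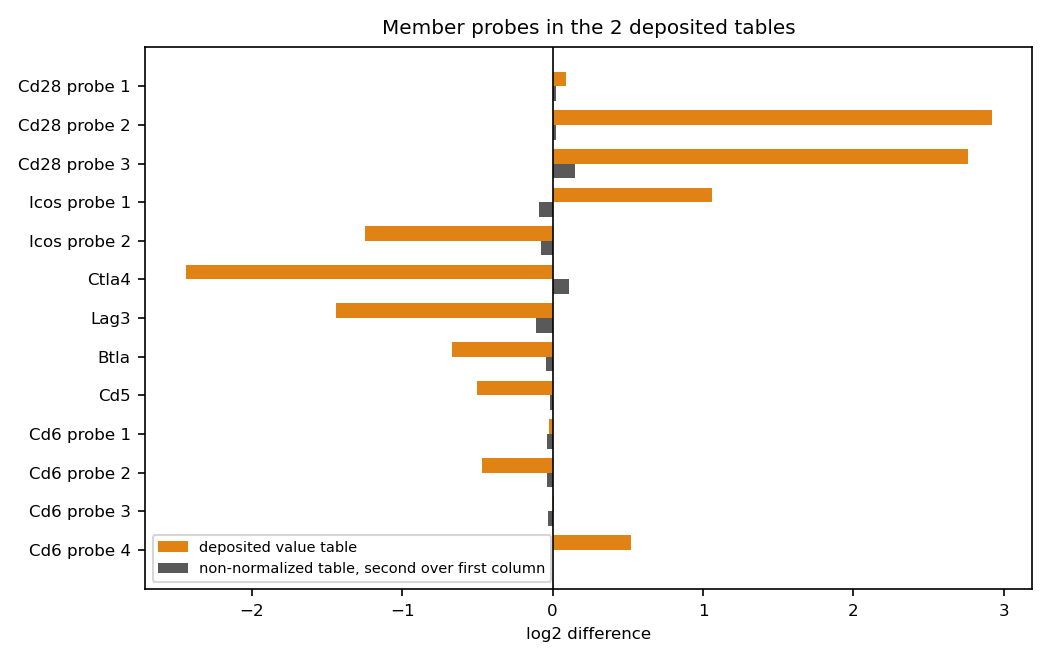
Log2 difference of each member probe in the deposited value table (orange) and log2 ratio of the second over the first column of the non-normalized table (grey). Value-table differences reach 2.92 and -2.44, while every ratio of the non-normalized table lies between -0.11 and 0.15.

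Other receptors and ligands of the pathway were read from lists, by the probe of highest mean signal, beside 9.35% of all 7272 detected genes 2-fold or more higher and 10.2% lower. Among 8 other co-stimulatory receptors, all detected, 3 were higher and 1 lower, with a median of -0.21 against -0.07 for all genes. Cd226, which encodes the activating receptor DNAM-1, measured 10.01 in the CD4-labelled library and 13.24 in the NKT-labelled library, a difference of 3.22, although another of its 3 probes differed by only 0.31. Tnfrsf18, which encodes GITR, was higher by 2.56 and Slamf1 by 1.13, with its other probe at 0.23. Tnfrsf4, which encodes OX40, differed by -1.19. Cd2, Cd27 and Tnfrsf9 differed by 0.10, -0.54 and -0.53, and Crtam was at least 1.55-fold lower. Another Cd27 probe differed by 0.59 and the other Tnfrsf9 probe by 0.20. With the mean of probes standing for each gene, 2 of these receptors were higher and 2 lower, with a median of -0.03.

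Of 14 other inhibitory receptors only 4 had a probe on the value table and 3 were detected. Cd160, a receptor that binds HVEM as BTLA does, measured 9.82 and 13.89, a difference of 4.07. Klrg1, a lectin-like receptor that binds cadherins, was at least 2.10-fold higher, and Cd96, which shares the ligand CD155 with DNAM-1, differed by -1.99. These 3 receptors went both ways. Of 12 ligands 3 were measured. Cd274, which encodes PD-L1, measured 11.30 and 11.54, a difference of 0.25, and Pdcd1lg2, which encodes PD-L2, was at least 2.60-fold higher. Cd86, a ligand of both CD28 and CTLA-4, differed by -1.76 at its probe of highest mean signal and by -0.11 at another.

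Of the signalling molecules behind the receptors, 8 of 12 on the co-stimulatory side and 11 of 15 on the inhibitory side were within 2-fold, as were 80.4% of all detected genes. On the co-stimulatory side 2 of 12 detected genes were higher and 2 lower, with a median of -0.38. Pik3r1, the regulatory subunit of PI3-kinase that binds the CD28 tail, was higher by 1.06, and Pdpk1, the kinase that activates AKT, by 1.14. Another Pik3r1 probe differed by 0.92, and with the mean of probes only 1 gene on this side was 2-fold higher. Malt1, the protease of the CARMA1 complex that leads to NF-kB, differed by -2.49, and Vav1 by -1.11. On the inhibitory side 3 of 15 were higher and 1 lower, with a median of 0.12. Dok2 and Dok1, adaptors that restrain Ras signalling, were higher by 1.98 and by at least 3.20-fold, and Ppp2r1a, a scaffold of the phosphatase PP2A, by 1.30. Themis, a T cell adaptor that acts with the phosphatase SHP-1, differed by -1.55. Sla was within 2-fold at 0.71, but another of its probes differed by 2.08. With the mean of probes, 4 genes on the inhibitory side were 2-fold higher. Ptpn6 and Ptpn11, the phosphatases SHP-1 and SHP-2 that inhibitory tyrosine motifs recruit, differed by 0.59 and -0.30. The other Ptpn6 probe went the opposite way, at -0.41.

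Of 8 detected genes linked to the traffic of CTLA-4 between vesicles and the surface, 0 were 2-fold higher and 1 lower, near the shares of all genes, with a median of -0.14. Lrba, which protects CTLA-4 from lysosomal breakdown, differed by -1.15, with its other probe at 0.34. Trat1, an adaptor of the T cell receptor complex that also binds CTLA-4, measured 11.29 and 11.54, and Ap2m1, a subunit of the clathrin adaptor that takes CTLA-4 in, 10.95 and 11.13. Among 12 detected transcription factors and RNA-binding regulators of these genes, 2 were higher and 3 lower, with a median of 0.06. Tbx21, which encodes T-bet, was higher by 3.37 and Nr4a2, an orphan nuclear receptor induced by antigen, by at least 2.28-fold. Foxo1, a factor of naive T cells, differed by -1.65, Egr2, which T cell receptor signals induce, by -1.63, and Bcl6, the factor of follicular helper cells, by -1.11.

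**Figure D4:**
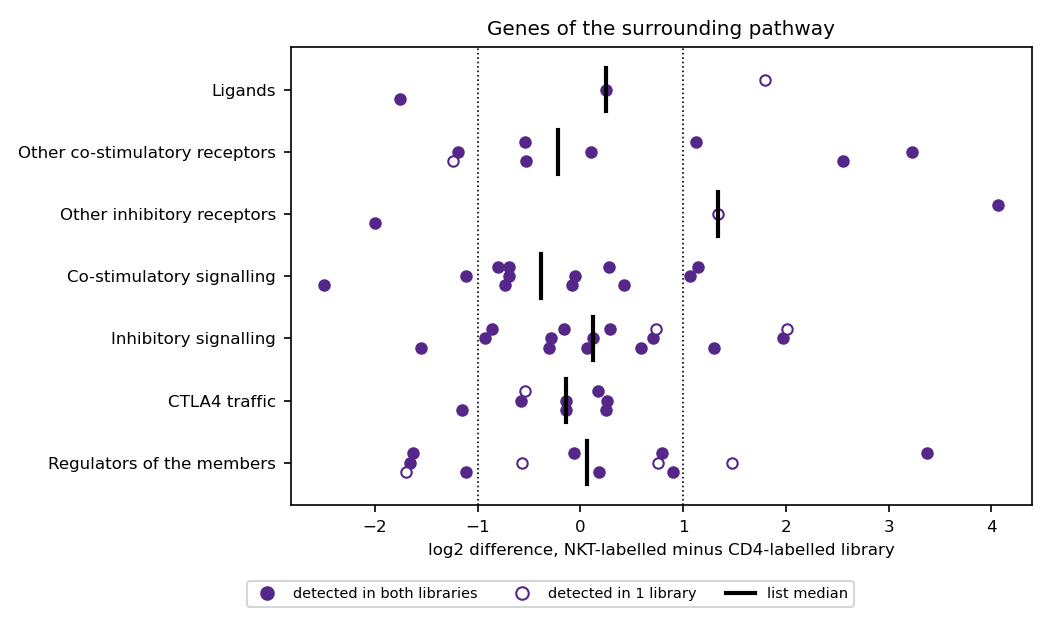
Log2 differences (NKT-labelled library minus CD4-labelled library) of the genes in 7 lists around the co-receptors, 1 point per gene at its probe of highest mean signal, open where only 1 library was at or above the detection level, with list medians as black bars and dotted lines at 2-fold. Cd160 at 4.07 and Tbx21 at 3.37 are the highest points.

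Markers of other T cell states that carry these receptors differed as well. CTLA-4 and ICOS are abundant on regulatory T cells, where Foxp3 measured 8.20 in the CD4-labelled library and 7.63, under the detection level, in the NKT-labelled library. Of the 8 listed regulatory markers 6 had a probe and 5 were detected, 1 of them 2-fold or more higher (Tnfrsf18) and 1 lower (Gpr83, by at least 5.54-fold). Their median difference was -0.57. The sum of the linear signals of the 6 was 3680 in the CD4-labelled library and 9466 in the other, but 2270 and 1146 for the 5 genes other than Tnfrsf18, a split made after the values were seen. Of those 5, Gpr83 had the largest difference, from 10.30 to 7.53, and Nrp1 differed by -0.75. Il2ra went the other way, at least 1.35-fold higher, and Ikzf2 was under the detection level in both libraries. Of the 7 follicular helper markers 5 had a probe and 4 were detected, with 3 of them 2-fold or more lower: Bcl6 as above, Cxcr5 by at least 3.70-fold and Pou2af1 by at least 4.10-fold. Their summed signals were 5562 and 4216. Another Cxcr5 probe differed by only -0.48. Il21, a defining follicular helper cytokine, was under the detection level in both.

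BTLA and CD5 are also made by B cells. Of 8 B cell markers 3 had a probe, with summed signals of 1538 and 781. Cd79b differed by -1.34, and Cd79a by -0.46 from a log2 signal of 8.30. Both measured CD8 T cell markers were lower, with summed signals of 60833 and 858. All 6 measured naive T cell markers were 2-fold or more lower, with summed signals of 84819 and 6880, although the other Lef1 probe differed by only -0.28. The 3 measured NK cell markers had summed signals of 803.4 and 7599, with Klre1 and Klrk1 2-fold or more higher and Eomes at least 1.69-fold lower. Of 2 measured markers of monocytes or macrophages, with sums of 378 and 1084, Cd14 was under the detection level in both libraries and the probes of Lyz2 differed by 1.94 and -0.52. Summed signals were 1241 and 74606 for 3 red cell genes and 603 and 9325 for 4 hepatocyte genes. All summed signals here and above include background and genes under the detection level, as all 4 hepatocyte genes were in the CD4-labelled library. Probes with a detection p of 0.05 or more had a median linear signal of 176 there, so ratios of low sums do not measure marker RNA. The part of these cells and states in the differences of Ctla4, Icos, Btla and Cd5 was not tested. The T cell identity list, with 9 of 9 measured genes detected, had summed signals of 139078 and 136165 and a median difference of 0.11. At the probe of highest mean signal none of its genes was 2-fold or more higher and 1 was lower, Lat at -2.51, while Bcl11b differed by -0.96. Zap70 differed by 0.76 at that probe but by 2.55 at another. With differences centred on that list, Ctla4, 2 probes of Cd28 and the lower Icos probe, at -1.36, stayed 2-fold or more apart. The higher Icos probe fell within 2-fold, at 0.95.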

How the data were processed

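Total RNA of 2 sorted populations was labelled with biotin from 0.55 ug and hybridised to 1 Illumina bead array each, per the labels' protocols. Per the submitters' processing notes, GenomeStudio 2009.2 was the software used. The authors deposited a non-normalized table of probe intensity with a detection p-value beside each column, per the file headers, and a table of log2 values. Its 2 columns had equal sorted values within 0.00025, as quantile normalisation gives, and no background had been subtracted. The filter on probes was not given in the sources used here. Of its probes 11155 had 1 gene symbol, 0 several and 711 none.

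Differences are between log2 values, each probe on its own. A probe was detected at or above 7.83, and with 1 library below that level a fold is a lower bound. Calls were by size, at 2-fold. For gene lists, the probe with the highest mean signal stood for a gene. From each list at most 4 genes per direction were named, by largest size, besides genes given within 2-fold, which were chosen after their values were seen. The members and lists were chosen with earlier results of these data known. The non-normalized table was also normalised with limma 3.58.1 (neqc, offset 16) in R 4.3.3. The calling steps were tested on simulated data with less noise than the within-gene SD of 0.60. That test cannot give the share of false calls in these data.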

Additional observations from a re-analysis of the deposited data

Results flagged for a closer look

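All 13 member probes had a detection p of 0 in the second non-normalized column, which the main differences do not use and which serves only as an alternative. This signal stood out because it lies outside the value table. It includes the Lag3 probe, with an intensity of 363.3 there, which lay below the detection level in the value-table column given the same label. In the first column, of the CD4-labelled library, all 13 probes also had a detection p of 0, and Lag3 had 392.7. The 2 columns were nearly equal across probes (Pearson's r 0.997 on the log2 scale), and which sample the second column holds was not tested.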

How the results depend on the processing

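With the non-normalized table, after quantile normalisation and after neqc alike, the counts of co-stimulatory probes 2-fold higher and lower were 0 and 0 in place of 3 and 1, and that of inhibitory probes lower was 0 in place of 1. The inhibitory median turned to 0.0026 under both. Ctla4 turned to 0.15 after quantile normalisation and 0.16 after neqc, and Icos probe ILMN_2906430 to -0.051 and -0.056. Within the value table, background subtraction keeps the order of the 2 values of a probe, and the 2 centrings shifted differences by only 0.11 and -0.04. No member called 2-fold apart could therefore change sign under them, and they bear on size only. Inhibitory probes that were lower numbered 2 with background subtracted and 2 without a detection filter (Ctla4 and Lag3), and 3 at 1.5-fold, with Btla as well. Co-stimulatory probes lower numbered 0 at 4-fold. With background subtracted Ctla4 differed by -3.27 and Icos probe ILMN_1221516 by -1.92. The inhibitory median over Ctla4 and Btla only was -1.56. The settings without a detection filter, with detection at p under 0.05, with both libraries detected at p under 0.01, and with the second brightest probe were chosen after seeing the data. Of 56 list counts under other settings 9 moved by over 1.5 times. No paired analysis was possible because each group holds 1 array. Signal near background limits Lag3 most.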
